A study of Mus musculus with 6 samples.

Results

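Smooth muscle actin and the proteins that work with it pull on the cell's surroundings in smooth muscle and in myofibroblasts, the contractile cells of healing wounds. The 10 genes described here are Acta1, Acta2, Actg2, Tagln, Tagln2, Cnn1, Myl9, Tpm1, Tpm2 and Cald1, out of 24147 gene lines in the deposited tables. They were chosen by symbol as smooth muscle actin and contractile genes of myofibroblasts, and each stood on 1 line. RNA was sequenced from lens capsules of wild-type C57BL/6 mice 2 months old, with the lens epithelial cells still attached, once the fiber cells had been removed through a corneal cut. Capsules were collected 24 h after the operation (3 libraries) or at 0 h, directly after it (3 libraries). All animals had the operation, so the 0 h group is freshly operated and not unoperated tissue. The operation models cataract surgery, after which cells that stay on the capsule can cloud it. The libraries of a time are described as biological triplicates, and how many animals or eyes went into each is not stated.

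Contraction in these cells rests on filaments of actin and myosin II. Acta1, Acta2 and Actg2 encode the actins of skeletal muscle, vascular smooth muscle and visceral smooth muscle, while Actb and Actg1 encode the cytoplasmic actins of nearly all cells. Tropomyosins (Tpm1, Tpm2), calponin (Cnn1), caldesmon (Cald1) and transgelins (Tagln, Tagln2) bind along the actin filament, and Myl9 encodes a regulatory light chain of myosin II. Many of these genes are controlled by the serum response factor SRF, which binds a DNA element called the CArG box. In the lens, Acta2 and Tagln are known as markers of epithelial cells that turn into myofibroblasts.

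Library totals were 8069314 to 9249248 gene counts at 24 h and 8734906 to 10862573 at 0 h, with 16248 to 16962 genes detected. Of all genes, 13956 passed a filter on low counts and were tested by edgeR's quasi-likelihood test. At an adjusted p under 0.05 (Benjamini-Hochberg over all genes tested), 28.2% of the tested genes were called, 15.2% higher and 13.0% lower at 24 h. The median log2 change of all tested genes was -0.03. Levels are given in CPM, counts scaled to library size with TMM factors. Lens identity was plain at both times. Summed markers of lens epithelium were 53544 to 66815 CPM at 24 h, against 85725 to 145006 CPM at 0 h. These sums were mostly the crystallins Cryaa and Cryab. In the 24 h libraries Cryaa averaged 46169.6 and Cryab 11496.5 of a mean sum of 59233.3 CPM. In the 0 h libraries Cryaa averaged 88070.5 and Cryab 25173.2 of a mean sum of 115134 CPM. The sums and their difference therefore describe these crystallins and not the other epithelial markers. Of the 8 lens fiber markers tested, 8 were lower at 24 h, and of the 8 lens epithelial markers 4 were lower and 0 higher, although the calls of Cryab, Six3 and Sox2 were lost without single libraries (adjusted p up to 0.122, 0.148 and 0.127). Six3 also lost its call with library totals, with TMM without crystallins and with no filter (adjusted p = 0.103, 0.0523 and 0.0657). Sox2 also lost its call with library totals (adjusted p = 0.0908). The call of the fiber marker Bfsp1 was likewise lost on leaving out replicate 1 or 2 of 0 h (adjusted p = 0.116 and 0.0507) or replicate 2 of 24 h (adjusted p = 0.0961), and its log2 change of -2.21 was -3.21 without 24 h replicate 1.

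Of the 10 contractile genes, 7 passed the filter and 6 of these 7 were higher at 24 h, against 15.2% of all tested genes. None was lower, and 0 of the 7 had a negative log2 change. Their median log2 change was 2.51. Acta2, Tagln, Tagln2, Tpm2, Tpm1 and Myl9 rose, Cald1 was not called, and Acta1, Actg2 and Cnn1 were close to 0 at both times. In 6 of the 7, every 24 h library lay above every 0 h library, which held for 22.9% of all tested genes, and in 0 of the 7 did every 24 h library lie below, as it did for 21.8% of all tested genes. In bulk tissue, more cells of a type and more RNA per cell cannot be told apart.

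**Figure D1:**
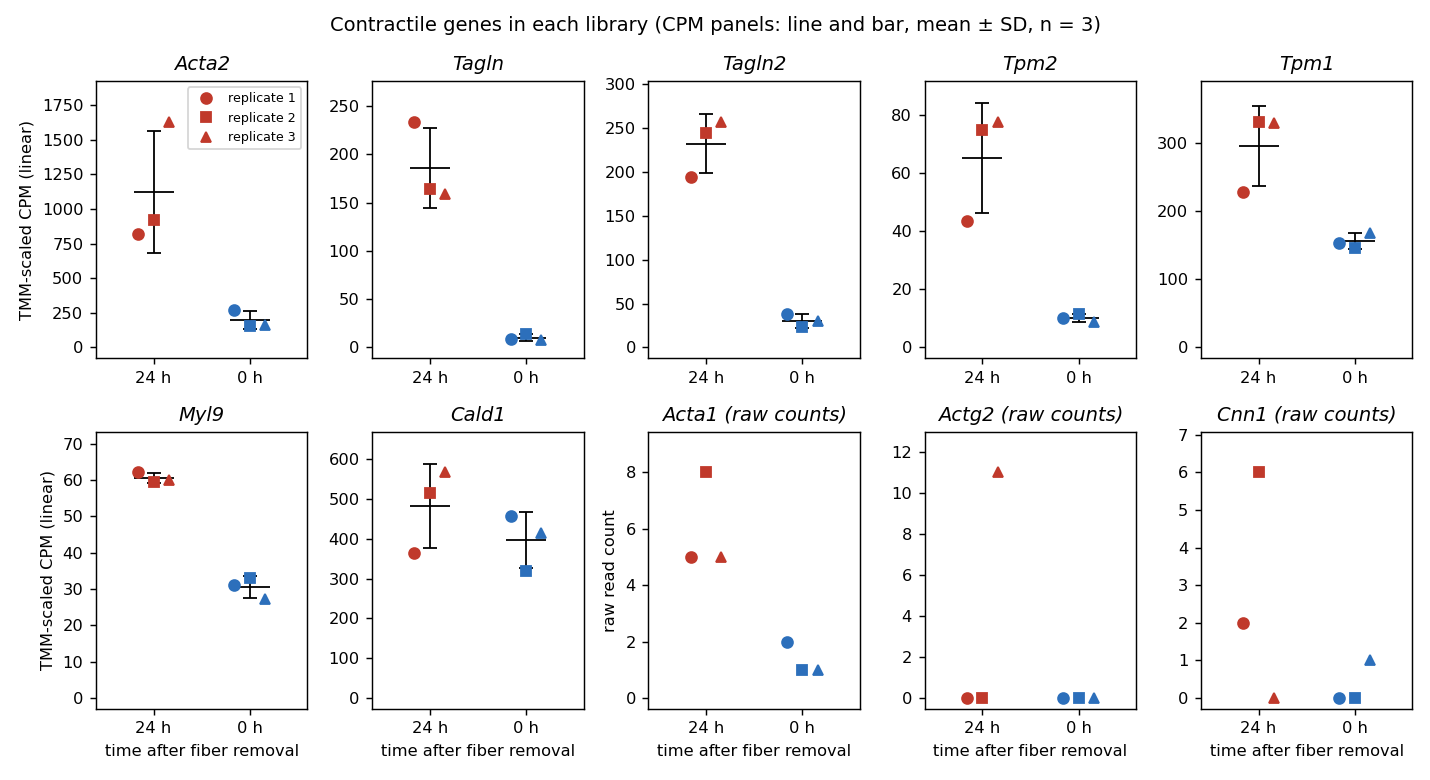
Level of each of the 10 genes in every library, with 24 h in red left of 0 h in blue and a marker shape for each replicate. Acta2, Tagln, Tagln2, Tpm2, Tpm1 and Myl9 separate the times completely, Cald1 overlaps, and Acta1, Actg2 and Cnn1 are drawn as raw read counts, none above 11.

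Among the actins, Acta2 (chromosome 19, 34240336 to 34255373, mm10) was the one smooth muscle actin present in quantity. It had 816, 922 and 1629 CPM in 24 h replicates 1 to 3, against 271, 158 and 163 CPM in 0 h replicates 1 to 3. The lowest 24 h library was about triple the highest 0 h library, and 24 h replicate 3 stood well above the other 24 h libraries. The log2 fold change was 2.51 ± 0.33 (SE), a 5.68-fold rise with a 95% interval of 3.37 to 9.58 (adjusted p = 0.000988). It was 2.14 on the log2 scale without 24 h replicate 3 and 2.84 without 0 h replicate 1.

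Acta1 (chromosome 8, 123891758 to 123894775), the skeletal muscle actin, had 5, 8 and 5 reads in the 24 h libraries and 2, 1 and 1 reads in the 0 h libraries. Summed over libraries, 24 h held 18 reads and 0 h held 4, for a library-size-corrected ratio of 4.75 (exact 95% counting interval 1.56 to 19.3), and the gene was not called in a fit without the filter (adjusted p = 0.185). Acta1 reads equalled 0.0325% to 0.0922% of the Acta2 reads at 24 h and 0.0635% to 0.0749% at 0 h. In the annotated transcripts, 2.00% of the 50-base stretches of Acta1 were identical to a stretch of another actin, all of them shared with Actb, and 0.352% of those of Acta2. The part of shared reads in the Acta1 counts was not tested.

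Actg2 (chromosome 6, 83512909 to 83536251), the visceral smooth muscle actin, had 11 reads in 24 h replicate 3 and 0 reads in the other 5 libraries. Against a floor of 3 reads over the 0 h group this was 3.87-fold higher, a value that leaves out counting error in the 11 reads. It rests on a single library, and Actg2 was not called without the filter (adjusted p = 0.186). Set beside Acta2, the actins of skeletal and visceral muscle were at the limit of detection, where 3 reads correspond to 0.324 to 0.372 CPM at 24 h and 0.276 to 0.343 CPM at 0 h.

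Per kilobase of transcript, Acta2 remained a minor actin at both times. Of the counts per kilobase of the 6 actin genes, Acta2 held 8.76%, 9.02% and 14.8% in the 24 h libraries, against 6.39%, 5.55% and 5.17% in the 0 h libraries. The mean share was 10.9% ± 3.44 at 24 h and 5.70% ± 0.623 at 0 h (SD, n = 3 each), with no overlap. An exact two-sided permutation test over the libraries gave p = 0.1, the smallest this design allows. The difference of 5.17 percentage points was 3.19 points without 24 h replicate 3. Actb and Actg1 supplied nearly all the rest, and both also rose, Actb 2.82-fold (adjusted p = 0.00141) and Actg1 2.81-fold (adjusted p = 0.00158). Actb had 3243 ± 315 CPM at 24 h, against 1150 ± 221 CPM at 0 h, so Acta2 rose together with both cytoplasmic actins.

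**Figure D2:**
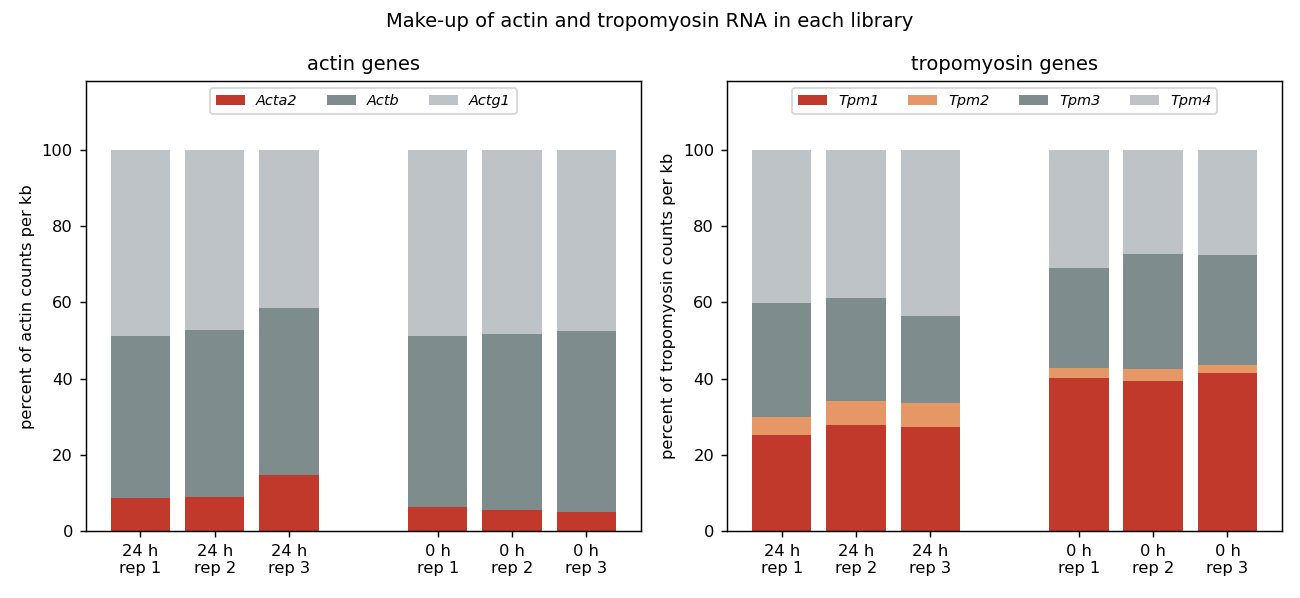
Percent of actin (left) and tropomyosin (right) counts per kilobase taken by each gene in each library, 24 h libraries left of 0 h libraries. Acta2 takes 8.76% to 14.8% of actin at 24 h and 5.17% to 6.39% at 0 h, while Tpm1 takes less and Tpm4 more of tropomyosin at 24 h. Acta1, Actc1 and Actg2 are too low to be drawn.

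The transgelins cross-link or stabilize actin filaments. Tagln (chromosome 9, 45929628 to 45936058), also called SM22 alpha, had 234, 164 and 159 CPM in the 24 h libraries and 8.62, 14.2 and 7.32 CPM in the 0 h libraries. It was low in fresh capsules, and its lowest 24 h value was more than 10 times its highest 0 h value. Its log2 fold change of 4.20 ± 0.28 (SE), an 18.4-fold rise (95% interval 11.7 to 28.8, adjusted p = 5.25e-05), was the largest among the 7 tested genes. Unlike Acta2, which was highest in 24 h replicate 3, Tagln was highest in 24 h replicate 1. The last 95 bases of Tagln overlap Pcsk7 on the opposite strand, whose reads were 203 to 281 at 24 h and 170 to 204 at 0 h.

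Tagln2 (chromosome 1, 172500246 to 172507375), the transgelin of non-muscle cells, had 194, 245 and 258 CPM at 24 h, against 37.9, 22.8 and 30.1 CPM at 0 h. The groups lay far apart, with a log2 fold change of 2.94 ± 0.22 (SE) and a 7.66-fold rise (95% interval 5.44 to 10.8, adjusted p = 7.62e-05). Per kilobase Tagln2 stood at 168 ± 24.3 CPM at 24 h, against 21.9 ± 5.44 CPM at 0 h. Tagln stood at 117 ± 26.3 CPM at 24 h, against 6.34 ± 2.31 CPM at 0 h. Tagln2 had the higher mean per kilobase at both times, a difference between genes that was not tested. The neuronal transgelin Tagln3 had 4.75 ± 2.84 CPM at 24 h, against 4.12 ± 2.41 CPM at 0 h, with no call (adjusted p = 0.856).

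The tropomyosins lie in the groove of the actin filament and set its access to myosin. Tpm2 (chromosome 4, 43513726 to 43523554), beta-tropomyosin, had 43.5, 74.7 and 77.6 CPM at 24 h, against 10.2, 11.6 and 8.91 CPM at 0 h. The 24 h libraries were several times higher throughout, with replicate 1 the lowest of them. Tpm2 rose by 2.67 ± 0.25 (SE) on the log2 scale, or 6.35-fold (95% interval 4.30 to 9.38, adjusted p = 0.000197).

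Tpm1 (chromosome 9, 67022593 to 67049213), alpha-tropomyosin, had 228, 332 and 329 CPM at 24 h, against 154, 146 and 168 CPM at 0 h. The groups did not overlap, but the gap was narrow beside that of Tpm2. The log2 fold change was 0.93 ± 0.18 (SE), a 1.90-fold rise (95% interval 1.43 to 2.52, adjusted p = 0.00567). Against a 1.5-fold change Tpm1 was no longer called (adjusted p = 0.0874, and from 1.89e-05 to 0.0874 over all 14 alternatives). The counts are per gene, so the muscle and non-muscle isoforms of Tpm1, Tpm2 and Cald1 were not told apart.

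With Tpm3 and Tpm4, which serve mainly non-muscle filaments, the make-up of tropomyosin differed between the times. Tpm1 held 25.3%, 28.0% and 27.3% of tropomyosin counts per kilobase in the 24 h libraries, against 40.2%, 39.4% and 41.4% in the 0 h libraries. Tpm2 held 4.76%, 6.21% and 6.34% at 24 h and 2.63%, 3.09% and 2.16% at 0 h. For each of Tpm1 and Tpm2 the groups did not overlap, and the exact permutation p was 0.1, the smallest possible. Tpm4 took most of the difference, at 40.8% ± 2.36 at 24 h and 28.7% ± 2.05 at 0 h, with a 4.05-fold rise in CPM (adjusted p = 0.00015). Tpm1 RNA thus rose while its share among tropomyosins was lower.

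Myl9 (chromosome 2, 156775464 to 156781657) had 62.2, 59.5 and 60.1 CPM at 24 h, against 31.2, 33.2 and 27.2 CPM at 0 h. The 24 h libraries were nearly equal to each other and all above the 0 h libraries. The log2 fold change was 0.99 ± 0.13 (SE), a 1.98-fold rise with the tightest interval of the 7 tested genes (1.61 to 2.44, adjusted p = 0.00108). Its close relatives Myl12a and Myl12b are light chains of non-muscle myosin. Myl12a was 2.40-fold higher (adjusted p = 0.000824). Myl12b stood at 80.9 ± 12.4 CPM at 24 h, against 108 ± 19.3 CPM at 0 h, with no call (adjusted p = 0.117) except in the fit with a replicate block (adjusted p = 0.0461). Myl12a, Myl12b, Tagln3 and Cnn3 were named after their values were seen.

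Cald1 (chromosome 6, 34709444 to 34775469), which restrains the myosin motor on actin, had 365, 514 and 567 CPM at 24 h, against 457, 319.6 and 416 CPM at 0 h. The groups overlapped, and the 24 h library with the least Cald1 lay below 0 h replicates 1 and 3. The log2 fold change was 0.28 ± 0.21 (SE), with an interval of -0.21 to 0.77, that is a 0.865-fold to 1.70-fold level (adjusted p = 0.377). The upper end of that interval lies below the 1.90-fold estimate of Tpm1, the smallest rise among the called genes, but the difference between the genes was not tested. At 0 h Cald1 was the highest of the 10 genes per kilobase, at 98.5 ± 17.5 CPM, with Acta2 at 76.7 ± 24.9 CPM, a difference within their spread. At 24 h Acta2 was first with 436 ± 172 CPM per kilobase, while Tagln2, Cald1 and Tagln followed at 168 ± 24.3, 119 ± 26.0 and 117 ± 26.3, and the last pair did not differ beyond their spread.

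Cnn1 (chromosome 9, 22099253 to 22109221), calponin of differentiated smooth muscle, had 2, 6 and 0 reads in the 24 h libraries and 0, 0 and 1 reads in the 0 h libraries. No library exceeded 0.637 CPM. Summed over libraries, 24 h held 8 reads and 0 h held 1, for a ratio of 8.44 (exact 95% counting interval 1.13 to 374), and the gene was not called without the filter (adjusted p = 0.329). The other calponins were abundant. Cnn2, found in many non-muscle cells, rose 5.49-fold to 136 ± 15.3 CPM at 24 h, against 24.8 ± 2.83 CPM at 0 h (adjusted p = 3.35e-05), and Cnn3, at 785 ± 226 CPM (24 h) and 862 ± 179 CPM (0 h), did not pass the test (adjusted p = 0.728).

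**Figure D3:**
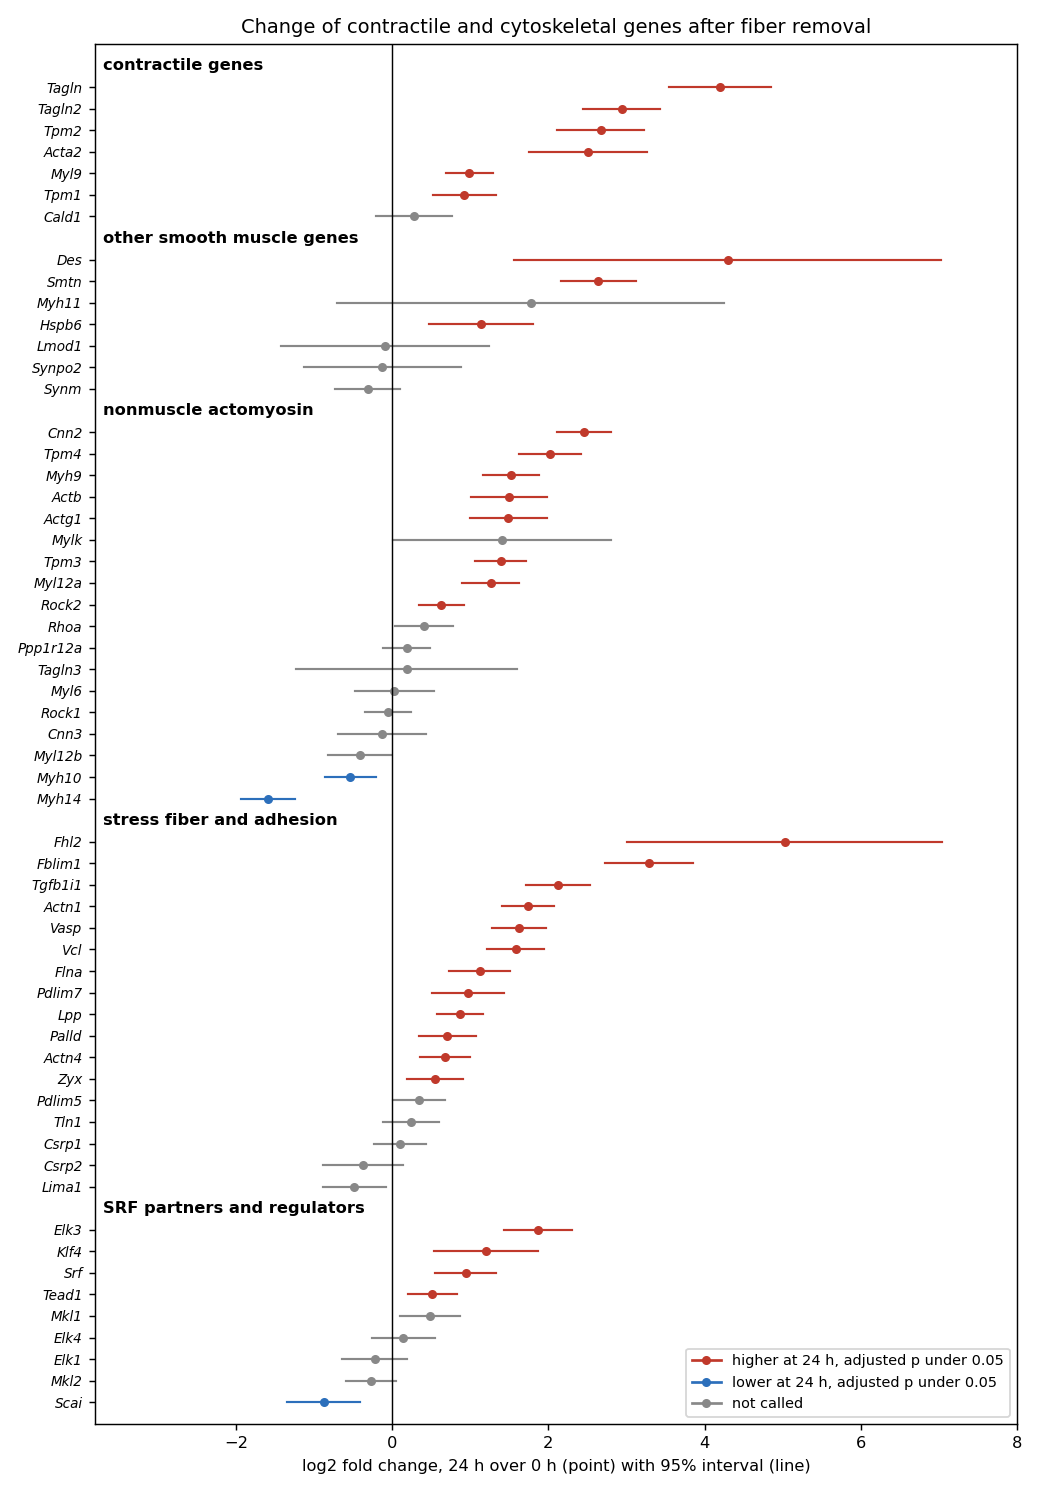
Log2 fold change of 24 h over 0 h (points) with 95% intervals (lines) for the tested contractile genes and for 4 lists of related genes, red where higher, blue where lower and grey where not called. Tagln, at 4.20, leads the contractile genes, and Cald1, at 0.28, has an interval that spans 0.

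Related genes were taken from 4 lists holding 55 genes, of which 51 were tested, 27 were higher and 3 lower, against 15.2% higher and 13.0% lower among all tested genes, with a median log2 change of 0.68. Of 9 other genes typical of smooth muscle, 7 were tested, 3 were higher and 0 lower. Smtn, the filament protein smoothelin, had 62.7, 44.5 and 58.4 CPM at 24 h, against 10.4, 8.92 and 7.08 CPM at 0 h, a 6.24-fold rise (adjusted p = 0.000103). Hspb6, a small heat shock protein of muscle, rose 2.20-fold (adjusted p = 0.0203), but lost the call when 0 h replicate 1 or 24 h replicate 2 was left out (adjusted p = 0.0618 and 0.0655) and against a 1.5-fold change (adjusted p = 0.107).

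Des, the muscle intermediate filament desmin, had 2.05, 1.17 and 14.2 CPM at 24 h, against 0, 0.601 and 0.244 CPM at 0 h. It was called higher (log2 fold change 4.30, adjusted p = 0.0281), with most of its reads in 24 h replicate 3. Its log2 fold change was 2.44 without that library (adjusted p = 0.109) and 5.53 without 0 h replicate 2, and it was not called without 0 h replicate 1 or 0 h replicate 3 (adjusted p = 0.0884 each) or with limma-voom (adjusted p = 0.112), nor against a 1.5-fold change (adjusted p = 0.0568). Synm, another intermediate filament protein, was not called (adjusted p = 0.247).

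Myh11, the myosin heavy chain of differentiated smooth muscle, had 48.7, 1.91 and 40.4 CPM in 24 h replicates 1 to 3 and 3.41, 21.3 and 1.46 CPM in 0 h replicates 1 to 3. The groups overlapped, and 24 h replicate 2 lay below 0 h replicate 2. Myh11 was not called (log2 fold change 1.78, adjusted p = 0.264, range over the alternatives 0.0665 to 0.539). Leaving out 0 h replicate 2 moved its log2 fold change to 3.60 (adjusted p = 0.0665). The pigment cell genes Pmel, Dct and Tyrp1 were likewise lowest of the 24 h libraries in replicate 2. Pmel, a melanosome protein, had 265, 19.1 and 293 CPM at 24 h, against 7.82, 45.6 and 5.25 CPM at 0 h. Like Myh11, it was lowest at 24 h and highest at 0 h in replicate 2. Pmel was named after its values were seen.

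In 24 h replicate 2, Myh11 and Pmel were lowest of the 24 h libraries. There Acta2 had 922 CPM, Tagln 164 CPM, Tpm2 74.7 CPM and Smtn 44.5 CPM, each above every 0 h library. Smtn was also lowest of the 24 h libraries there, against 62.7 and 58.4 CPM in 24 h replicates 1 and 3. Without 24 h replicates 1, 2 or 3 in turn, Acta2 had a log2 fold change of 2.73, 2.63 and 2.14, and Tagln one of 4.03, 4.28 and 4.30. The part of smooth muscle or pigment cells in these levels was not tested. Mylk, the myosin light chain kinase, had 57.3, 10.4 and 41.9 CPM at 24 h, against 12.7, 22.4 and 5.86 CPM at 0 h. The groups overlapped, with no call over all libraries (adjusted p = 0.123) and a call of higher once 24 h replicate 2 was left out (adjusted p = 0.0241). Mylk was named after its values were seen.

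**Figure D4:**
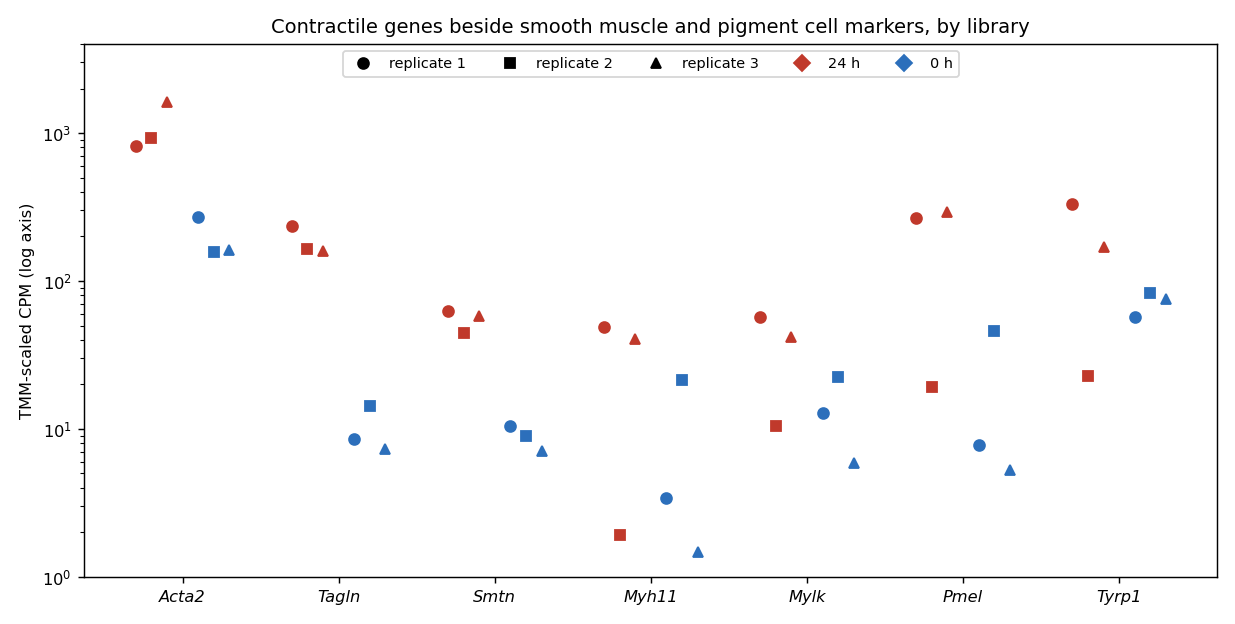
Level in each library, on a log axis, of 3 genes that rose (Acta2, Tagln, Smtn) and of the smooth muscle genes Myh11 and Mylk and the pigment genes Pmel and Tyrp1, with 24 h in red left of 0 h in blue. Myh11 and Pmel are low in 24 h replicate 2 (squares), at 1.91 and 19.1 CPM, where Acta2 is at 922 CPM.

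Of 19 non-muscle actomyosin genes, 18 were tested, 8 were higher and 2 lower, against 15.2% and 13.0% of all tested genes. Their median log2 change was 0.52. Cnn2, Tpm4, Tpm3, Actb, Actg1, Myl12a, Rock2 and Myh9 were the 8 that rose, Tpm3 2.62-fold (adjusted p = 0.000307). The myosin II heavy chains of non-muscle cells moved in opposite directions. Myh9 had 1117 ± 84.3 CPM at 24 h, against 389 ± 12.3 CPM at 0 h, a 2.87-fold rise (adjusted p = 0.000314). Myh14 had 20.3 ± 1.77 CPM at 24 h, against 60.9 ± 7.13 CPM at 0 h, and fell by 1.59 on the log2 scale (adjusted p = 0.000217). Myh10, named after its values were seen like Myh9, fell by 0.53 on the log2 scale (adjusted p = 0.0241), but lost the call on leaving out replicate 1 or 3 of 0 h (adjusted p = 0.0621 and 0.101), on leaving out replicate 1 or 2 of 24 h (adjusted p = 0.0697 and 0.076), or against a 1.5-fold change (adjusted p = 0.874).

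Of 17 stress fiber and adhesion genes, all tested, 12 were higher and 0 lower, against 15.2% and 13.0% of all tested genes. Their median log2 change was 0.87. Fblim1, which links filamin to adhesions, rose 9.76-fold to 47.9 ± 6.24 CPM at 24 h, against 4.87 ± 1.47 CPM at 0 h (adjusted p = 8.53e-05). Tgfb1i1, the adhesion protein Hic-5, rose 4.36-fold (adjusted p = 0.000136), the actin cross-linker Actn1 3.34-fold (adjusted p = 0.00014) and the actin regulator Vasp 3.08-fold (adjusted p = 0.000204). Fhl2, a LIM protein named after its values were seen, had 73 reads in the 24 h libraries together and 2 in those of 0 h, for a ratio of 38.5 (exact 95% counting interval 10.3 to 324). Zyx, also named after its values were seen, was the one among the 12 whose call was lost without single libraries, namely replicates 2 and 3 of 0 h (adjusted p = 0.1 and 0.0879) and replicates 2 and 3 of 24 h (adjusted p = 0.0851 and 0.0504).

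SRF and its partners were measured with 10 genes, of which 9 were tested. Of these, 4 were higher and 1 lower, against 15.2% and 13.0% of all tested genes. Srf had 60.1 ± 6.01 CPM at 24 h, against 31.3 ± 6.07 CPM at 0 h, a 1.92-fold rise (adjusted p = 0.00426, and 0.0675 against a 1.5-fold change). Its actin-regulated coactivators Mkl1 and Mkl2 were not called (adjusted p = 0.0625 and 0.182), with 28.7 ± 2.67 and 69.4 ± 8.83 CPM at 24 h and 20.5 ± 2.49 and 83.7 ± 4.90 CPM at 0 h. Myocd, the coactivator of differentiated smooth muscle, stayed below the filter at 0.694 ± 0.510 CPM at 24 h and 0.611 ± 0.116 CPM at 0 h. Elk3, a ternary complex factor that binds beside SRF, rose 3.65-fold (adjusted p = 0.0003). Scai, a suppressor of the Mkl coactivators, fell by 0.88 on the log2 scale (adjusted p = 0.0132), a call lost on leaving out 0 h replicate 3 or 24 h replicate 1 (adjusted p = 0.0622 and 0.0528). Klf4, which represses smooth muscle genes in vessels, rose 2.29-fold (adjusted p = 0.0162), but lost the call on leaving out replicate 1 or 2 of 0 h (adjusted p = 0.0539 and 0.0555) or replicate 2 of 24 h (adjusted p = 0.0507). The other higher gene, Tead1, was named after its values were seen and lost its call on leaving out replicate 2 or 3 of 0 h (adjusted p = 0.0899 and 0.0617) or replicate 1 or 3 of 24 h (adjusted p = 0.0533 and 0.0575).

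Since many contractile genes are known targets of SRF, their promoters were searched for the CArG box, which is CC and GG around 6 bases that are each A or T. It reads as the same pattern on both strands. RefSeq promoter windows (GRCm38.p6, 250 bases before to 50 after the gene start) were found for 8 of the 10 genes, all but Actg2 and Tagln. An exact box lay in the windows of Acta1 and Myl9, 2 of 8 genes, or 2 of their 9 windows, against 1.63% of all 32851 windows. With at most 1 base off, a box lay in 5 of 8 genes (Acta1, Acta2, Cald1, Myl9 and Tpm1), or 5 of their 9 windows, against 21.1% of all windows. Cald1 has 2 windows, and its box lies before a RefSeq start at 34598504, upstream of the gene's deposited position, while the window at the deposited start (34709444) holds none. The 250 bases before the start are shown 5′ to 3′ for 4 contractile genes with boxes and for Srf, with boxes of at most 1 base off in capitals.
Acta2 (chr19:34255374-34255623, minus strand): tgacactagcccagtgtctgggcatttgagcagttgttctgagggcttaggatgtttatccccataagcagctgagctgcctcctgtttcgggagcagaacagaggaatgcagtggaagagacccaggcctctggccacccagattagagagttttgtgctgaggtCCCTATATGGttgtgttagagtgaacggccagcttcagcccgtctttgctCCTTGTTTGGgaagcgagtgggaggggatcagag
Acta1 (chr8:123894776-123895025, minus strand): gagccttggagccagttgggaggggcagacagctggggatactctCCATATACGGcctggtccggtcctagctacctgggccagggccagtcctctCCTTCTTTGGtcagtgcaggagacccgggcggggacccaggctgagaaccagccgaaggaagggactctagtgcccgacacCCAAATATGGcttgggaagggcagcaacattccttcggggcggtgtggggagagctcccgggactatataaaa
Myl9 (chr2:156775214-156775463, plus strand): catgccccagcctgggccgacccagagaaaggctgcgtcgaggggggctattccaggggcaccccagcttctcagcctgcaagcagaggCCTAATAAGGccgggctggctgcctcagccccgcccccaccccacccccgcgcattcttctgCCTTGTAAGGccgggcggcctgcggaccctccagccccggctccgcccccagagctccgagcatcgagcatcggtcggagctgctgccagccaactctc
Tpm1 (chr9:67049214-67049463, minus strand): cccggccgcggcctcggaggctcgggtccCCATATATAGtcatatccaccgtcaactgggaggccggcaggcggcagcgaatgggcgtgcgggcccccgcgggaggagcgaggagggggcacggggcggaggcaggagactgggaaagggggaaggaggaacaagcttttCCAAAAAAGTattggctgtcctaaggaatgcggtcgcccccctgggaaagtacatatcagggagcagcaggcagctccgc
Srf (chr17:46556163-46556412, minus strand): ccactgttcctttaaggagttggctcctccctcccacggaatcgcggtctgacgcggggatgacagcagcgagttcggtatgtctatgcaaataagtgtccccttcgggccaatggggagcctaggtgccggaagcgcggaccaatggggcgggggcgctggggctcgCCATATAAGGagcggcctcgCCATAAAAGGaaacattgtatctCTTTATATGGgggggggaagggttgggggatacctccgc

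In Acta2 both marked boxes are 1 base off and begin 84 and 34 bases before the start. Acta1 holds an exact box 73 bases before its start and hardly any reads, and Myl9 holds an exact box 161 bases before its start and rose 1.98-fold. Tpm2 and Tagln2, which rose 6.35-fold and 7.66-fold, had no box in their windows, not even with 1 base off. A match is a description of letters and not a measured binding site.

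The genes whose levels were most like those of Acta2 were found among 9698 genes with a mean of at least 10 CPM, by Pearson correlation of log2 CPM over the 6 libraries, which lie in 2 groups by time. They were Lgals1, Map2k2, Gpd2, Prps1 and Usp47, with correlations of 0.996 to 0.997. Correlation leaves out the size of a change. Their log2 changes were, in that order, 1.88, 0.46, 1.16, 0.51 and 0.41, against 2.51 for Acta2, and Usp47 was not called (adjusted p = 0.0519). Being picked for likeness to a gene that separates the times, their own changes are no separate result. Lgals1, galectin-1, had 208, 269 and 361 CPM at 24 h, against 96.5, 64.5 and 67.5 CPM at 0 h, and rose by 1.88 on the log2 scale (adjusted p = 0.000907). Of the contractile genes, Tagln2 was the most like Acta2, at a correlation of 0.978 and rank 73, and Cald1 the least, at 0.662.

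Markers of other cells were measured beside the contractile genes, and their part in the result was not tested beyond the values given. Among all tested genes 15.2% were higher and 13.0% lower, the shares to set beside the counts of markers called. Of 6 pericyte markers, 5 were tested, 0 were higher and 3 lower, and their summed level was 90.1 to 102 CPM at 24 h and 152 to 202 CPM at 0 h. Pdgfrb supplied the larger part of it, a mean of 72.1 of 97.3 CPM (24 h) and of 125.9 of 168.9 CPM (0 h). The sums therefore do not describe the other pericyte markers. Rgs5 and Cspg4 stayed uncalled, with positive log2 changes of 0.96 and 0.52 (adjusted p = 0.243 and 0.296). Notch3, among the 3, lost its call without any single library other than 0 h replicate 1 (adjusted p = 0.0615 to 0.132), with limma-voom (adjusted p = 0.0744) and with library totals (adjusted p = 0.0521). Of 11 skeletal muscle markers, 3 were tested and 0 called (0 at an unadjusted p under 0.05 in edgeR), with sums of 5.50 to 8.56 CPM at 24 h and 10.5 to 11.7 CPM at 0 h, and Myh2 was at 0 in all libraries. Fibroblast markers were tested in 4 of 7 and higher in 2, Col1a1 and Col3a1, the second of which lost its call without 24 h replicate 3 (adjusted p = 0.181) and without each 0 h library in turn (adjusted p = 0.132, 0.08 and 0.112). Their sums were 106 to 404 CPM at 24 h and 254 to 504 CPM at 0 h, mostly Pdgfra, which was not called (adjusted p = 0.0613, range over the alternatives 0.00057 to 0.215), and Kera was at 0 in all libraries. At 0 h Pdgfra averaged 398 CPM, while Dcn and Col1a1 averaged 7.13 and 3.95 CPM. The sums therefore do not describe the other fibroblast markers, and which cells held the Pdgfra RNA was not tested.

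Pigment markers were higher in 3 and lower in 2 of 9, against 15.2% and 13.0% of all tested genes. Their sums were 143 to 1205 CPM at 24 h and 160 to 308 CPM at 0 h. The 3 higher ones, Dct, Pmel and Mlana, each lost the call on leaving out replicate 1 of 0 h (adjusted p = 0.0847, 0.146 and 0.114), replicate 3 of 0 h (adjusted p = 0.0768, 0.124 and 0.115) or replicate 1 of 24 h (adjusted p = 0.0763, 0.0954 and 0.106). Pmel and Mlana lost it also without 24 h replicate 3 (adjusted p = 0.0699 and 0.0585). Rpe65, an enzyme of the retinal pigment epithelium, was lower (adjusted p = 0.000741). Photoreceptor markers were called in 0 of 9, with 0 of 9 at an unadjusted p under 0.05 in the edgeR fit with no covariate. With a replicate block, Sag, Pde6b, Rcvrn and Nrl passed the threshold (adjusted p = 0.0297, 0.00612, 0.0325 and 0.0293). Photoreceptor sums were 1089 to 4965 CPM at 24 h and 2004 to 6152 CPM at 0 h. Endothelial markers were higher in 2 of 5 tested, with sums of 23.2 to 45.8 CPM at 24 h and 13.4 to 39.5 CPM at 0 h. Most of the 0 h level came from Kdr, whose mean there was 24.9 of 29.8 CPM. Kdr alone among the 5 had a negative log2 change (-1.09, uncalled in the main fit, adjusted p = 0.145). The sums therefore do not describe the other endothelial markers. Cdh5 rose 12.8-fold (adjusted p = 0.00253) and stayed called under all 14 alternatives. The other higher marker, Pecam1, lost its call on leaving out replicate 1 of either time (adjusted p = 0.0533 for 24 h and 0.071 for 0 h), and its log2 change of 2.24 was 2.98 without 0 h replicate 2. Macrophage markers were higher in 1 and lower in 3 of 7, with sums of 54.1 to 93.1 CPM at 24 h and 53.2 to 133 CPM at 0 h. Among the 3 lower ones, Csf1r and Mrc1 each lost the call on leaving out replicate 2 or 3 of 0 h or replicate 1 or 2 of 24 h (adjusted p = 0.094 to 0.147 for Csf1r and 0.0951 to 0.174 for Mrc1). Mrc1 also lost it with library totals and with TMM without crystallins (adjusted p = 0.0522 and 0.0513), and its log2 change of -1.90 was -2.65 without 24 h replicate 3. Csf1r and Mrc1 were not called with limma-voom (adjusted p = 0.0587 and 0.0703). Neutrophil markers were higher in 5 of 5 tested, with sums of 70.7 to 122 CPM at 24 h and 4.81 to 10.02 CPM at 0 h.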

How the data were processed

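RNA from lens capsules with attached epithelial cells was sequenced in 6 libraries, grouped by the time point in the sample titles. Per the file headers, the deposited values are raw read counts, in whole numbers, and RPKM for each gene. The RPKM values equalled each count divided by gene length and summed counts to within rounding, and were not otherwise used. The submitters' processing notes name TopHat2 2.1.0, HTSeq 0.6.1p1, Trim Galore 0.4.4 and mm10. The strand setting and annotation were not given in the sources used here. The series describes biological triplicates but not how animals map to libraries, so p-values measure the spread between these libraries, which may be partly technical.

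Counts were filtered with filterByExpr, scaled by TMM and tested with edgeR 4.0.16 (R 4.3.3, quasi-likelihood, two-sided, no covariate), with Benjamini-Hochberg adjustment over all genes tested and a threshold of 0.05. The script was checked on simulated counts. Standard errors were taken approximately, as the log2 change over the root of its F value. Counting intervals cover counting error only, and the floor of 3 counts covers that of the group without reads only. Alternatives were other scalings, no filter, DESeq2 1.42.0, limma-voom (limma 3.58.1), a test against a 1.5-fold change, a replicate block and leaving out each library. The contractile genes and all lists were chosen with earlier results of these data known. Named genes were the 10 contractile genes, the 4 lowest p in each related list, markers of highest level and a few preset markers, and the 5 genes most like Acta2. Other genes were named after their values were seen, among them all calls named as lost without a library. Gene positions are as deposited, on mm10. All 6 library pairs within a time differed by more than counting noise (chi-square per degree of freedom 24.4 to 64.0). Transcripts used for shared stretches were GENCODE M21.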

Additional observations from a re-analysis of the deposited data

How the results depend on the processing

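The count of contractile genes higher at 24 h was 6 under every alternative run except the test against a 1.5-fold change, where it was 5, and the count lower was 0 under all 14. Of 98 recomputed fold changes of the 7 tested genes, 98 kept their direction and 97 their side of the threshold, the exception being Tpm1 against a 1.5-fold change. That test, which asks for a larger change by construction, left 1060 higher and 629 lower genes over all, 1 other smooth muscle gene, 7 stress fiber and adhesion genes and 1 SRF partner. Leaving out single libraries gave 1041 to 1648 lower genes, the lowest without 0 h replicate 3, 1 to 3 other smooth muscle genes, the lowest without 0 h replicate 1, and 2 to 3 SRF partners, the lowest without 0 h replicate 2. Without length normalization the share of Tpm2 among tropomyosins differed by 4.11 percentage points in place of 3.14. Leaving out the division by length gives longer genes more weight, and Tpm2, at 3326 bases, is the longest (Tpm1 3279, Tpm3 2731, Tpm4 2082). Scaling moved the median of all genes by at most 0.08 on the log2 scale. Same-numbered libraries of 24 h and 0 h correlated in their deviations by 0.0866, 0.215 and 0.397, and differently numbered ones by -0.350 to 0.172. Each 0 h library correlated best with the 24 h library of its own number. By contrast, 24 h replicate 1 correlated best with 0 h replicate 2 (0.172). Whether shared replicate numbers mark pairs of libraries is not known, and the main fit did not pair them. With a replicate block 2315 genes were higher and 2174 lower, and 6 contractile, 3 other smooth muscle, 8 non-muscle actomyosin, 12 stress fiber and adhesion and 4 SRF partner genes were higher. Depth limits Acta1, Actg2 and Cnn1, whose reads lie near the floor.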
